A study of Homo sapiens with 10 samples.

Results

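Chemokines are small secreted proteins that draw white blood cells along a concentration gradient, and interleukin-6 is a secreted cytokine of inflammation. The 9 genes described here were CXCL1, CXCL2, CXCL3, CXCL5 and CXCL8, whose products attract neutrophils through the receptors CXCR1 and CXCR2, together with CXCL14, an epithelial chemokine, CCL2, which attracts monocytes through CCR2, CCL20, which attracts lymphocytes and dendritic cells through CCR6, and IL6. Lung epithelial and carcinoma cells can secrete most of them. NF-kB is a well known activator of several of these genes, and their short-lived mRNAs carry AU-rich elements that decay factors such as ZFP36 bind. All probe sets annotated to 1 of these genes and to no other were taken, which gave 16 probe sets for the 9 genes, of 41091 probe sets with 1 gene for 19775 genes in all.

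The 10 Affymetrix arrays came from a pair of non-small cell lung cancer lines, 5 arrays each: HTB-182 (H520 in the series title), a squamous cell carcinoma line, and A549, an adenocarcinoma line. Cells of every group spent 4 h in medium with 10% charcoal-stripped serum, which is low in steroids, and then 3 h with 0.1% ethanol (vehicle), 1 µM estradiol, 1 µM estradiol with 10 µM tamoxifen, 1 µM estradiol-BSA, or 1 µM estradiol-BSA with 10 µM tamoxifen. Estradiol-BSA is estradiol coupled to bovine serum albumin, used in the study to reach receptors at the plasma membrane, and tamoxifen is an estrogen receptor ligand used as an inhibitor. Each combination of line and treatment was 1 array, no separate cultures are named as replicates, and neither albumin nor tamoxifen was given by itself in any group. The titles of the estradiol with tamoxifen arrays name only tamoxifen, whereas their source descriptions name both compounds and were followed. All p-values below therefore rest on the spread among the 10 arrays alone, part of which may be technical.

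Median intensities per array ran from 17.5 to 21.5, with the highest on the A549 vehicle array. On that array 479 of 22992 tested probe sets lay at least 2-fold above or below the mean of the other A549 arrays. The same count was 39 to 73 on the other A549 arrays. It was 0 to 18 on the HTB-182 arrays, each against the mean of the others of that line. Every A549 difference from vehicle below rests on that array, and the part of that array in those differences was not tested. HTB-182 had an intensity of 4152 ± 229 (SD, n = 5 arrays) for SOX2, a squamous lineage factor, against 135 ± 59.6 in A549, where it read 36.1 with vehicle and 131 to 192 on the treated arrays. KRT14, DSG3 and PKP1, other squamous markers, were however below 20 on every HTB-182 array. KRT5 averaged 22.1 in HTB-182 and 26.1 in A549, PERP 3027 and 3846, and TRIM29 65.1 and 57.0. A549 had 3411 for KRT7 and 9139 for KRT18, keratins of glandular epithelium, against 18.1 and 2952 in HTB-182, while the lung adenocarcinoma marker NKX2-1 averaged 17.0 and 17.9. Of the other adenocarcinoma and alveolar markers, CEACAM6 (397 against 99.1), MUC1 (98.8 against 25.4) and NAPSA (31.2 against 22.3) had the higher mean in A549. SFTPB (27.8 against 32.2), SFTPC (41.6 against 48.0) and SLC34A2 (16.5 against 18.2) had the lower mean there. The leukocyte gene PTPRC was below 20 on every array, and the 7 leukocyte markers with a probe set summed to 195 on the A549 vehicle array, 160 to 235 on the treated A549 arrays, 143 on the HTB-182 vehicle array and 132 to 147 on the treated HTB-182 arrays. Among them CD14 averaged 82.2 in A549 and 10.6 in HTB-182, LYZ 9.24 and 35.9, ITGAM 30.3 and 35.1, and CD3E 24.3 and 21.5. CSF1R and CD163 averaged below 20 in both lines.

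Promoter sequences of 8 of the 9 genes were held in the RefSeq table used (GRCh38.p14); CCL2 had no entry. They are shown because 5 of the genes lie together on chromosome 4 and had higher values in A549, and because NF-kB binds short motifs of the kind searched for. The 250 bases before each gene's start were searched on both strands for GGNNTTTCC, in which N is any base, and for GGAATTTCC, which is one form of it. Each line gives 70 bases, 5′ to 3′ on the gene's strand, from 110 to 41 bases before the start, and capitals mark the matches.
CXCL1 (chr4:73869283-73869352, plus strand): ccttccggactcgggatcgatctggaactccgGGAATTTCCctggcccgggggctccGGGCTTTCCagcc
CXCL2 (chr4:74099236-74099305, minus strand): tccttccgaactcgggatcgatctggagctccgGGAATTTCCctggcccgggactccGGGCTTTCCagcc
CXCL3 (chr4:74038730-74038799, minus strand): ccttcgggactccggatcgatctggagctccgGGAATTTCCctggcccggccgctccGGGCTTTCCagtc
CXCL5 (chr4:73998718-73998787, minus strand): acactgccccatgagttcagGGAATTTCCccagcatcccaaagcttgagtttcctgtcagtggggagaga
CXCL8 (chr4:73740459-73740528, plus strand): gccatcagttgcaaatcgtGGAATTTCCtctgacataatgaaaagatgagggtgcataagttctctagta
CXCL14 (chr5:135579032-135579101, minus strand): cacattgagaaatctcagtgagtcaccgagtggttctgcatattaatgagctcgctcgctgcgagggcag
CCL20 (chr2:227813732-227813801, plus strand): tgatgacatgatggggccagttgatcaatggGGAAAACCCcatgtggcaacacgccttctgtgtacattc
IL6 (chr7:22727090-22727159, plus strand): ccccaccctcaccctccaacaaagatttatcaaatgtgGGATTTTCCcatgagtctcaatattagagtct
CXCL6 (chr4:73836568-73836637, plus strand): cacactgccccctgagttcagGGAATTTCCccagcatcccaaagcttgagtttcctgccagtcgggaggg
CXCL1, CXCL2, CXCL3, CXCL5 and CXCL8 carried GGAATTTCC between 91 and 69 bases before the start. CXCL1, CXCL2 and CXCL3 held another match to GGNNTTTCC at 53 to 45 bases before it. IL6 matched GGNNTTTCC on its own strand, and CCL20 on the opposite strand, so that the printed strand shows the complement. CXCL14 had no match to these letters in 250 bases. The longest run of letters shared by CXCL1, CXCL2, CXCL3 and CXCL5 was GGGAATTTCCC, of 11 letters, which CXCL6, a neighbour of these genes that is not among the 9, also held and CXCL8 did not. Over 35116 promoters of the same length, GGNNTTTCC was found in 5.48%, GGAATTTCC in 0.413% and the 11-letter run in 0.0769%. The patterns and the run were chosen after the promoters of these genes had been seen, so these shares are background and no test. The printed bases of CXCL1, CXCL2 and CXCL3 are also much alike, so these genes are not separate cases. A match of letters is a description and does not show that a factor was bound there.

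**Figure D1:**
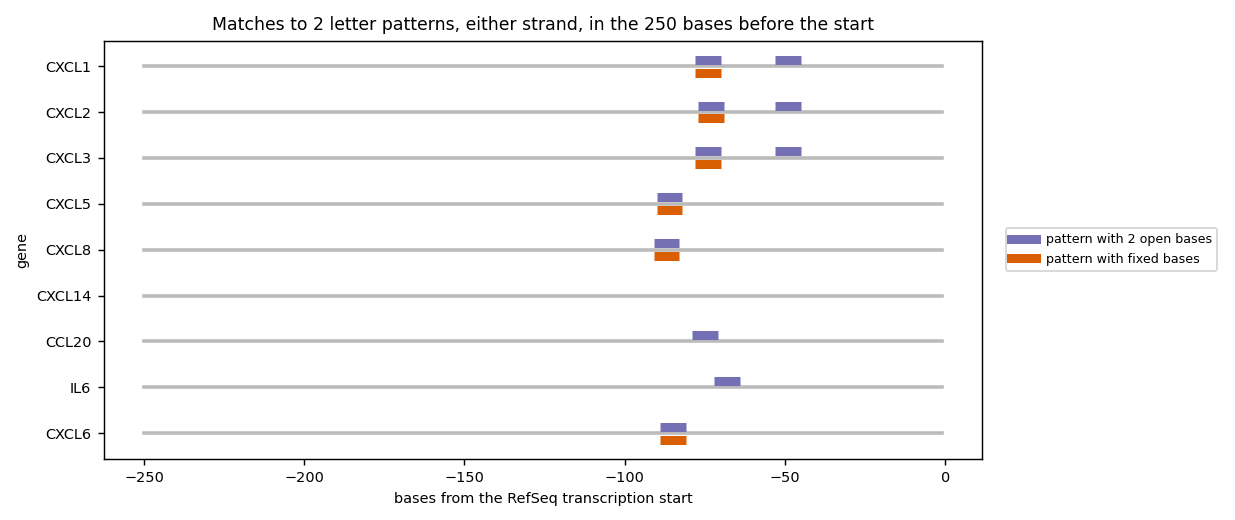
Positions of letter matches in the 250 bases before the RefSeq start of 8 member genes and the neighbour CXCL6 (horizontal axis, bases from the start; the pattern with 2 open bases is GGNNTTTCC and the pattern with fixed bases GGAATTTCC, either strand). All matches lie between 91 and 45 bases before the start, and CXCL14 has none.

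The rule counted a probe set as present above an intensity of 20. In HTB-182, 4 of the 16 probe sets were above 20 on all 5 arrays, the 3 of CXCL14 and the 1 of CCL2, and the other 12 were above it on none. In A549, 6 probe sets of 5 genes (CXCL1, CXCL2, CXCL5, CXCL8 and CCL2) were above 20 on all 5 arrays. CXCL3 was above it on 4 of 5 A549 arrays and the CXCL5 probe set 207852_at on 1, while 8 probe sets were above it on none. CCL20 and IL6 stayed below 20 on all 10 arrays. For tests, a probe set needed a mean log2(intensity + 16) over the 10 arrays of at least that of intensity 20, which 10 of the 16 passed, for 7 genes. The nearest above the limit were CXCL3 and CXCL2, whose mean corresponds to 21.2 and 22.0, and the nearest below was 207852_at of CXCL5 at 11.4. CXCL1, CXCL2, CXCL3, CXCL5 and CXCL8 passed only through A549 and CXCL14 only through HTB-182, so counts over the tested members are not evidence about the line difference.

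**Figure D2:**
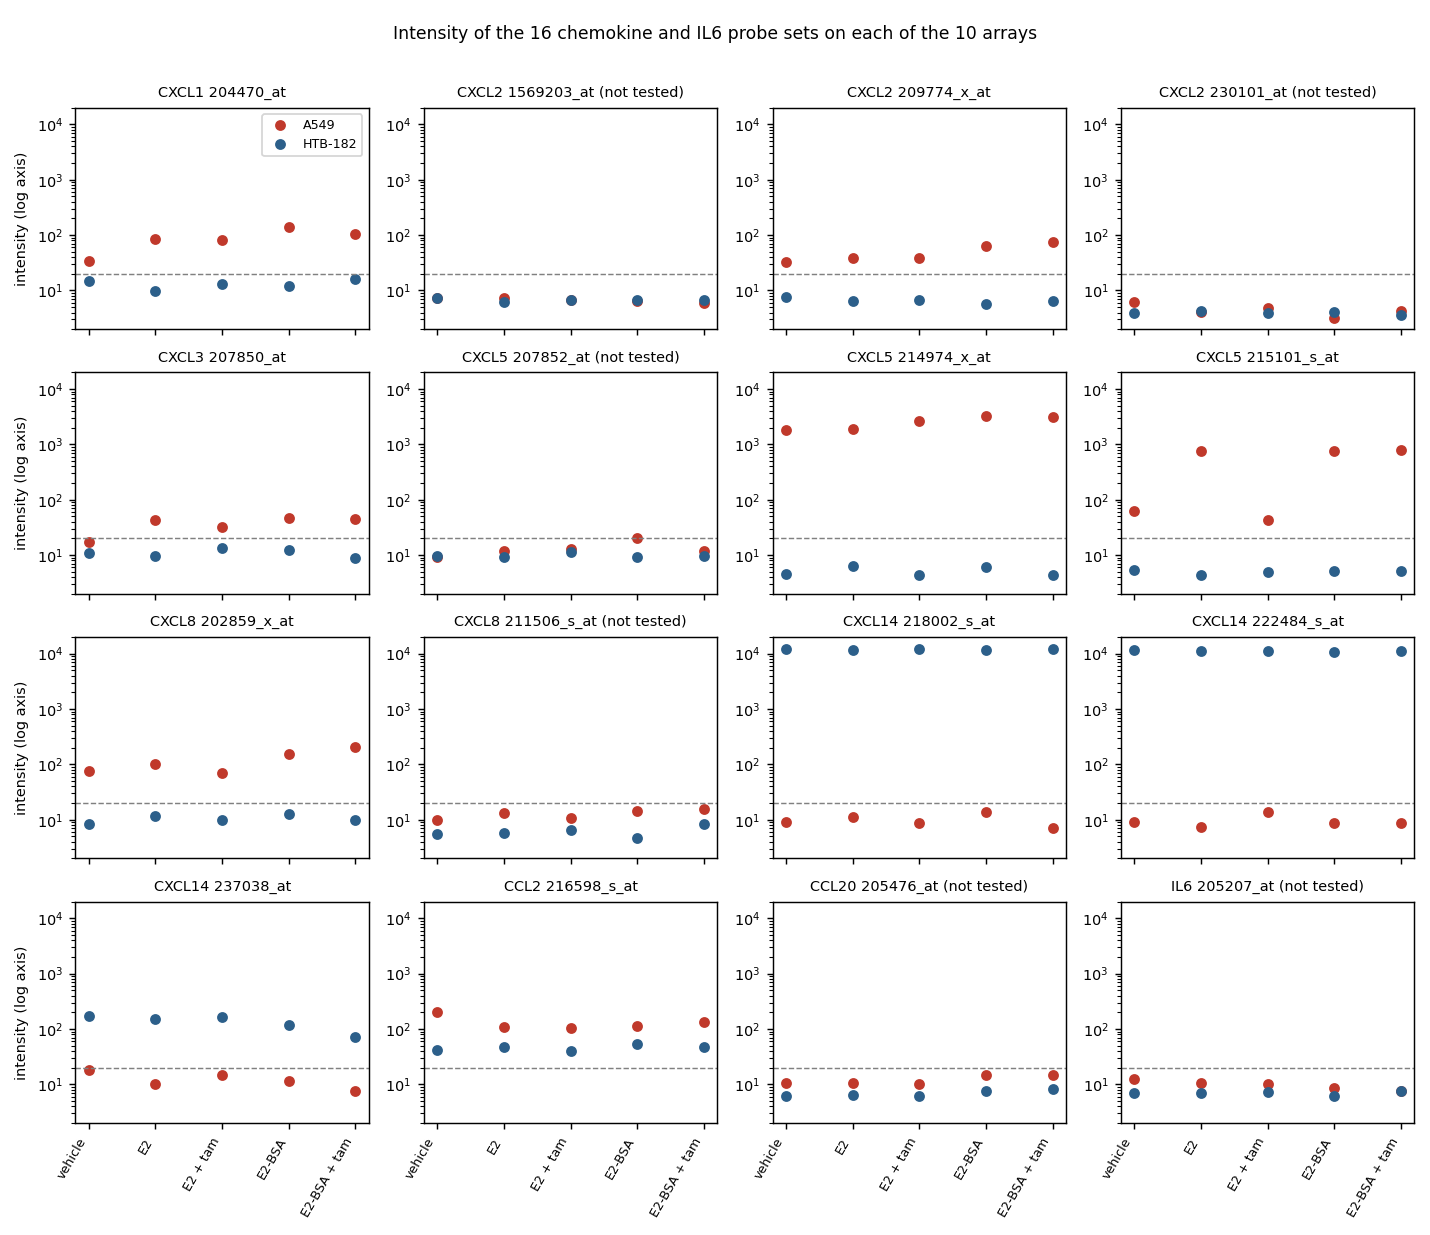
Intensity (log axis) of all 16 probe sets on the 5 HTB-182 and 5 A549 arrays, 1 panel per probe set and 1 point per array, by treatment (E2, estradiol; tam, tamoxifen), with a dashed line at intensity 20. The 3 CXCL14 probe sets are higher on every HTB-182 array, reaching 12072, and CXCL5 214974_x_at is the most widely separated of those higher in A549, at 1799 to 3304 against 4.42 to 6.30.

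The 2 lines made different chemokine mRNAs. Relative to HTB-182, A549 was higher in the neutrophil-attracting chemokines CXCL1, CXCL2, CXCL3, CXCL5 and CXCL8 and in CCL2, and lower in CXCL14. By limma with Benjamini-Hochberg adjustment over all 22992 probe sets, 7 of the 10 tested member probe sets were higher in A549 and 3 were lower. Among all tested probe sets the shares were 31.6% higher and 32.4% lower, so passing this test is common in these lines. In bulk RNA, fewer cells that hold a transcript and less of it per cell cannot be told apart. Without overlap between the 5 arrays of each line stood the same 7 (background 28%) and 3 (background 27.8%). Differences are given as log2(intensity + 16), a scale that understates the change of dim genes. Where a line was above 20 on no array, the fitted difference depends on the added 16 and is no measure of the true fold. For these the geometric mean of the brighter line over the limit of 20 is given as a lower bound, an "at least" fold that takes 20 as the highest level the dim line could have.

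CXCL5, a neutrophil chemokine of epithelial cells, showed the widest gap among the genes higher in A549. Its probe set 214974_x_at read 1799 in A549 with vehicle, 1901 with estradiol, 2645 with estradiol and tamoxifen, 3304 with estradiol-BSA and 3087 with estradiol-BSA and tamoxifen. In HTB-182 it stayed between 4.42 and 6.30, so no HTB-182 array came near the A549 arrays. The means were 2547 ± 680 and 5.19 ± 0.969 (SD, n = 5 arrays), so A549 was at least 124-fold higher. The fitted difference was 6.88 (log2, limma adjusted p = 9.0e-12) and ran from 5.20 to 8.66 over the other settings tried.

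CXCL8, or interleukin-8, read 75.3, 101, 68.7, 156 and 207 in A549 on probe set 202859_x_at, in the same order of treatments. In HTB-182 it read 8.51, 11.8, 9.86, 12.6 and 9.87, all under the A549 values. A549 was at least 5.55-fold higher, with a fitted difference of 2.28 (limma adjusted p = 4.1e-07). CXCL1 read 34.3, 84.3, 80.7, 141 and 104 in A549 and 14.8, 9.90, 13.4, 12.1 and 16.1 in HTB-182. The lowest CXCL1 value in A549, the vehicle array, was still above all 5 HTB-182 arrays. A549 was at least 4.03-fold higher, with a fitted difference of 1.75 (limma adjusted p = 9.2e-06).

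CXCL2 and CXCL3 are close relatives of CXCL1 that act on the same receptor. CXCL2 (209774_x_at) read 32.4, 39.2, 38.5, 63.7 and 75.9 in A549 and 5.65 to 7.51 in HTB-182, at least 2.36-fold higher in A549 (fitted difference 1.50, limma adjusted p = 1.6e-06). CXCL3 read 17.2, 43.1, 32.1, 45.9 and 45.6 in A549 and 10.7, 9.67, 13.3, 12.5 and 8.75 in HTB-182, at least 1.73-fold higher in A549 (fitted difference 0.93, limma adjusted p = 6.6e-05). The A549 and HTB-182 arrays did not overlap for either gene, although the A549 vehicle array of CXCL3 was below 20.

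CXCL14 ran the other way. In HTB-182 its probe set 218002_s_at read 12013, 11657, 12069, 11829 and 12072, on arrays whose highest intensity was 13908 to 14548. In A549 it read 7.08 to 13.6, so HTB-182 was at least 596-fold higher. The fitted difference was −8.85 (limma adjusted p = 1.5e-13) and ran from −10.11 to −7.34 over the other settings tried. The probe set 222484_s_at read 11540, 11030, 11058, 10833 and 11170 in HTB-182 and 7.53 to 13.8 in A549, at least 556-fold higher in HTB-182 (fitted difference −8.77). Whether a further rise could have been measured this near the highest intensities was not tested. Another probe set, 237038_at, read 174, 154, 168, 118 and 70.7 in HTB-182 and 7.60 to 18.5 in A549, at least 6.51-fold higher in HTB-182 (fitted difference −2.38, limma adjusted p = 1.3e-08).

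CCL2 was the one member with values above 20 in both lines. It read 41.2, 47.6, 39.4, 53.2 and 46.6 in HTB-182 and 202, 108, 104, 114 and 134 in A549. Every A549 array was above every HTB-182 array, and the difference was 1.24 ± 0.14 (limma adjusted p = 1.5e-05). CCL20 read 10.8, 10.8, 10.1, 14.5 and 14.6 in A549 and 6.14 to 8.44 in HTB-182, and IL6 read 12.5, 10.6, 10.0, 8.70 and 7.61 in A549 and 6.19 to 7.74 in HTB-182. Both genes were below the level tested.

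The comparison with vehicle set the 4 treated arrays of each line, 3 h with either estrogen form, against its vehicle array. Of these 4, 2 also held 10 µM tamoxifen, so the mean of the treated arrays does not give the effect of estrogen alone. In A549 the 4 treated arrays stood above vehicle for CXCL1, CXCL2, CXCL3 and 214974_x_at of CXCL5, which is 4 of the 10 tested probe sets against 18.1% of all tested probe sets. The 4 stood below vehicle for CCL2 and for 237038_at of CXCL14, 2 of 10 against 46.8%. The mean of the treated arrays was at least 2-fold above vehicle for 2 probe sets, CXCL1 and 215101_s_at of CXCL5, against 2.01% of all, and at least 2-fold below it for none (background 0.0783%). In HTB-182 the 4 treated arrays were above vehicle for 1 member probe set, CXCL8 (background 24.1%), and below it for 4 (background 17.8%), and no member reached 2-fold (background 0.00435% above and 0.013% below). In HTB-182, however, 6 of the 10 were below 20 on every array, where values cannot fall 2-fold on this scale and their order against vehicle is not informative. Of the 4 with a mean above 20 there, all 4 treated arrays were above vehicle for 0 (24.3% of the 21497 tested probe sets with such a mean) and below it for 2, 222484_s_at and 237038_at of CXCL14 (17.7%), and 0 reached 2-fold (0.00465% above and 0.014% below). In A549 the 3 CXCL14 probe sets were below 20, and of the other 7 the counts were 4 above (18.2% of 21931) and 1 below (47.1%), with 2 at least 2-fold above (2.1%) and 0 at least 2-fold below (0.0821%).

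**Figure D3:**
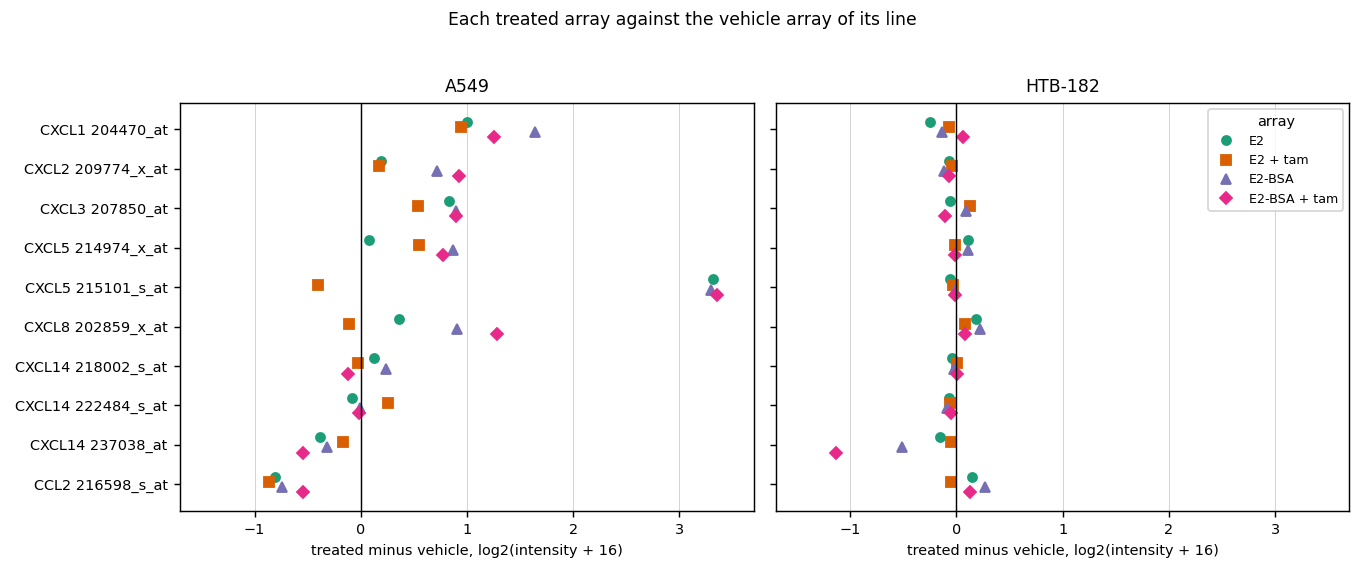
Difference of each treated array from the vehicle array of its line on the log2(intensity + 16) scale, for the 10 tested probe sets in each line; each point is 1 array (E2, estradiol; tam, tamoxifen). In A549 the 4 CXCL1 points lie at 0.94 to 1.64 and the 4 CCL2 points at −0.86 to −0.54, and the CXCL5 215101_s_at points split, with 1 at −0.40 and 3 at 3.30 to 3.35.

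CXCL1 passed the test of a difference between the lines. In A549 the treated arrays were 1.00 above vehicle with estradiol, 0.94 with tamoxifen added, 1.64 with estradiol-BSA and 1.25 with tamoxifen added to it, a mean of 1.21. In HTB-182, where CXCL1 was below 20 on every array, the mean was −0.10. The difference between the lines in treated minus vehicle was 1.31 ± 0.25 (95% interval 0.79 to 1.82, limma adjusted p = 0.00225), among 2.35% of tested probe sets that passed with a positive difference and 0.905% with a negative one. This model fits each lone vehicle array exactly, so the p assumes that vehicle arrays vary like the treated ones. For CXCL1, CXCL2, CXCL3, CXCL5 and CXCL8, all below 20 throughout HTB-182, the added 16 holds the HTB-182 side near 0. Their line differences therefore largely restate the A549 values and do not show that HTB-182 cells responded differently.

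CXCL3 was 0.83, 0.54, 0.90 and 0.89 above vehicle in A549 and averaged 0.01 in HTB-182, a line difference of 0.78 ± 0.22 that missed the threshold (limma adjusted p = 0.0554). It did not pass in 8 of 15 other settings either (limma adjusted p up to 0.122). It passed without either estradiol array (0.76, limma adjusted p = 0.0395 without that of HTB-182 and 0.0361 without that of A549). It also passed on brightest probe sets (limma adjusted p = 0.0274), with array weights (0.0410), without either estradiol with tamoxifen array (0.93, limma adjusted p = 0.00117 and 0.000828) or the A549 estradiol-BSA array (0.80, limma adjusted p = 0.0491). CCL2 lay below vehicle in A549 by 0.81, 0.86, 0.74 and 0.54, and averaged 0.13 above it in HTB-182. Its line difference was −0.87 ± 0.27 and missed the threshold (limma adjusted p = 0.0779). It did not pass in 10 of 16 other settings either (limma adjusted p up to 0.257). It passed without either estradiol array (−0.88, limma adjusted p = 0.0165 and 0.0168) and without either estradiol-BSA array (−0.85, limma adjusted p = 0.0342 and 0.0349).

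The other members did not pass in this comparison. CXCL2 was 0.19, 0.17, 0.72 and 0.93 above vehicle in A549, and its line difference was 0.58 ± 0.26 (limma adjusted p = 0.226). It did not pass in 13 of 15 other settings either (limma adjusted p up to 0.576). It passed without either estradiol with tamoxifen array (0.77, limma adjusted p = 0.0190 and 0.0107). For CXCL8 the A549 differences were 0.36, −0.11, 0.91 and 1.29, with a line difference of 0.47 ± 0.34 (limma adjusted p = 0.457). For 214974_x_at of CXCL5 they were 0.08, 0.55, 0.87 and 0.77, with a line difference of 0.52 ± 0.30 (limma adjusted p = 0.342), which passed without either estradiol array (0.72, limma adjusted p = 0.0140 and 0.0248). In 14 of 16 other settings 214974_x_at did not pass (limma adjusted p up to 0.739). The 3 CXCL14 probe sets had line differences of 0.07 to 0.11, with 95% intervals that reached from −0.47 to 0.69.

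A difference common to both lines was not found for any member. Over both lines, treated minus vehicle was 0.55 ± 0.24 for CXCL1 and 0.40 ± 0.16 for CXCL3 (limma adjusted p = 0.496 for both). None of the 22992 probe sets passed in limma, with 2308 at an unadjusted p under 0.05. The HTB-182 vehicle array decided this: without it 3905 probe sets passed, since only A549 then held a vehicle, and CXCL1 (1.21, limma adjusted p = 0.000892), CXCL3 (0.79, 0.00542), 215101_s_at of CXCL5 (2.39, 0.0335) and CCL2 (−0.74, 0.0111) were among them. Without the A549 vehicle array 2 passed, and CXCL1 was −0.10.

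The comparison of estradiol-BSA with free estradiol, both at 1 µM for 3 h, rested on 4 pairs of arrays, 1 without and 1 with tamoxifen in each line. In A549, 6 of the 10 tested member probe sets were higher with the conjugate in both pairs, against 16.5% of all tested probe sets, and 0 were lower in both (background 39.3%). The 6 were those of CXCL1, CXCL2, CXCL3, 214974_x_at of CXCL5, CXCL8 and CCL2, and all had a mean above 20 in A549 (backgrounds over such probe sets 16.4% higher and 39.7% lower). In HTB-182, 5 were higher in both pairs (background 44.2%) and 2 lower (background 15.9%); of the 4 with a mean above 20 there, 2 were higher (218002_s_at of CXCL14 and CCL2, background 45.1%) and 1 lower (237038_at of CXCL14, background 15.6%). Albumin alone was not among the treatments, so the conjugate and its carrier cannot be told apart.

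**Figure D4:**
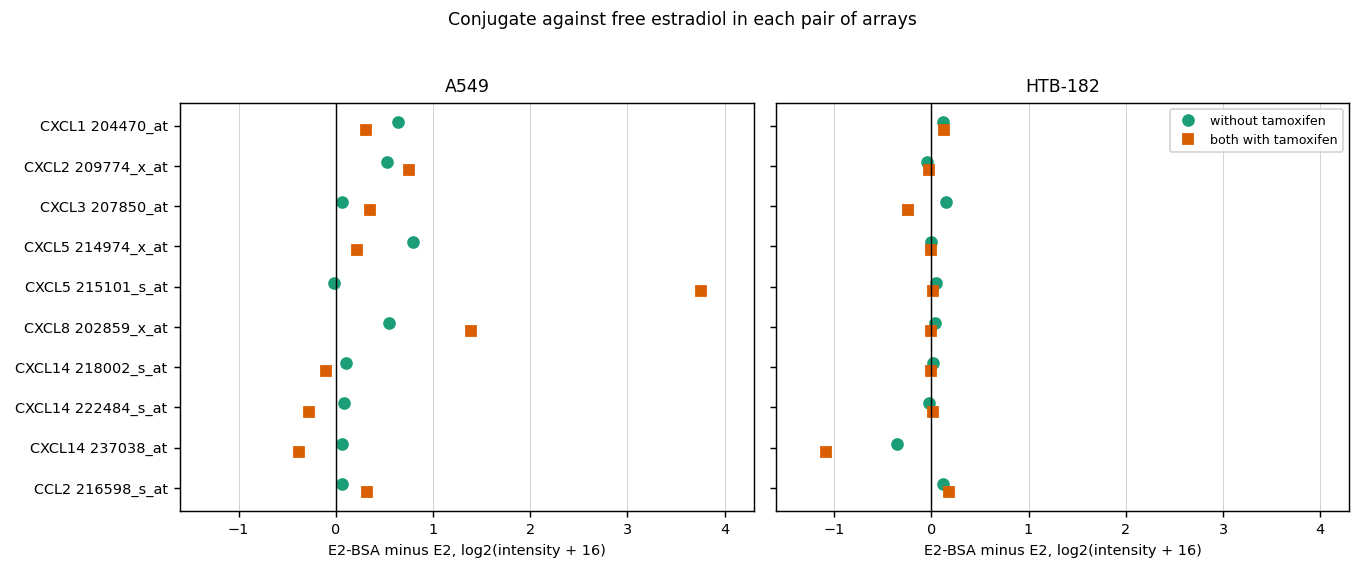
Estradiol-BSA minus estradiol on the log2(intensity + 16) scale for each tested member probe set, with 1 point per pair of arrays (without and with tamoxifen, tam) in each line. The A549 points of CXCL2 lie at 0.53 and 0.76 and those of CXCL8 at 0.55 and 1.39, whereas the HTB-182 points of both genes lie between −0.05 and 0.04.

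CXCL8 was 0.55 higher with the conjugate than with estradiol in A549 without tamoxifen and 1.39 higher with it, and 0.04 and 0.00 higher in HTB-182. Over the 4 pairs the difference was 0.50 ± 0.19 (95% interval 0.07 to 0.92), with a limma adjusted p of 0.9997. It was 0.24 without the A549 and 0.75 without the HTB-182 estradiol-BSA with tamoxifen array. CXCL2 was 0.53 and 0.76 higher in A549 and 0.05 and 0.03 lower in HTB-182, a difference of 0.30 ± 0.15 (95% interval −0.03 to 0.64). CXCL1 was 0.64 and 0.31 higher in A549 and 0.12 and 0.13 higher in HTB-182. CCL2 was 0.07 and 0.32 higher in A549 and 0.12 and 0.18 higher in HTB-182, with a difference of 0.17 ± 0.16 (95% interval −0.18 to 0.53), so CXCL1 and CCL2 were higher with the conjugate in all 4 pairs, as was CXCL8, by 0.00 in 1 of them. Leaving out 1 array moved the 4-pair difference from 0.13 to 0.47 for CXCL2, lowest and highest without the estradiol-BSA with tamoxifen array of A549 and of HTB-182. It moved it from 0.07 to 0.53 for CXCL1, without the estradiol-BSA array of A549 and of HTB-182.

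No member passed in this comparison, and the limma adjusted p was 0.9997 for each. Of all 22992 probe sets 1 passed, with a negative difference (0.00435%), and 870 had an unadjusted p under 0.05 in limma. CXCL3 differed by 0.08 ± 0.15 (95% interval −0.24 to 0.41) and CXCL1 by 0.30 ± 0.22 (−0.18 to 0.78). CXCL14 differed by 0.01 and −0.05 on 218002_s_at and 222484_s_at, with 95% intervals inside −0.27 to 0.23, and by −0.44 ± 0.14 on 237038_at. In HTB-182 that probe set read 154 with estradiol and 118 with the conjugate, and 168 and 70.7 with tamoxifen added, whereas the others stayed within 10833 to 12072, so the probe sets of CXCL14 disagreed.

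Whether the conjugate differed from estradiol by line was tested after these values had been seen, and for members below 20 throughout HTB-182 it too largely restates the A549 values. The line difference was 0.95 ± 0.22 for CXCL8 (limma adjusted p = 0.423) and 0.68 ± 0.16 for CXCL2 (limma adjusted p = 0.427). Neither passed, and 3 of the 22992 probe sets passed with a positive and 2 with a negative difference (0.013% and 0.0087%). CXCL8 passed without either estradiol-BSA array (1.21, limma adjusted p = 0.00645 without that of HTB-182 and 0.00238 without that of A549). For 214974_x_at of CXCL5 the value was 0.51 (limma adjusted p = 0.550), and 0.81 (limma adjusted p = 0.0334) without the HTB-182 estradiol with tamoxifen array. Those fits keep 1 residual degree of freedom.

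CCL20 and IL6 were below 20 on all 10 arrays and were not tested. In A549, CCL20 read 14.5 and 14.6 with the conjugate and 10.1 to 10.8 on the other 3 arrays. IL6 read 12.5 with vehicle, 10.6 and 10.0 on the estradiol arrays and 8.70 and 7.61 on the conjugate arrays, and no order is read from values this low.

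Tamoxifen was used as an inhibitor and was compared in the same 4 pairs of arrays, with each estrogen form and in each line. No member passed, and 0 of the 22992 probe sets passed in limma, with 387 at an unadjusted p under 0.05. CXCL1 differed by −0.02 ± 0.22 (95% interval −0.49 to 0.46), CXCL2 by 0.06 ± 0.15 (−0.27 to 0.40), CXCL3 by −0.08 ± 0.15 (−0.40 to 0.24) and CCL2 by −0.05 ± 0.16 (−0.41 to 0.31). CXCL8 differed by −0.09 ± 0.19 (−0.51 to 0.34), and in A549 its pairs had opposite signs, −0.47 with estradiol and 0.38 with the conjugate. These intervals do not show that tamoxifen left the genes as they were. The line difference in the tamoxifen effect passed for 0 members and for 2 of all probe sets, 1 in each direction (0.00435% each).

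The probe sets of CXCL5 disagreed within A549. Probe set 215101_s_at read 62.7 with vehicle, 769 with estradiol, 43.6 with estradiol and tamoxifen, 758 with estradiol-BSA and 789 with estradiol-BSA and tamoxifen. It was thus low on the vehicle and the estradiol with tamoxifen array and high on the other 3, whereas 214974_x_at read 1799 and 2645 on the former and 1901 to 3304 on the latter. With tamoxifen added, 215101_s_at differed by −3.72 on estradiol and by 0.06 on the conjugate, and 214974_x_at by 0.47 and −0.10. In HTB-182 215101_s_at stayed between 4.41 and 5.29.

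For 215101_s_at the line difference in treated minus vehicle was 2.42 ± 0.66 (limma adjusted p = 0.0423), with the HTB-182 side held near 0 by values of 4.41 to 5.29. It was 3.36 without either estradiol with tamoxifen array and 1.49 without either estradiol-BSA with tamoxifen array. The call was lost with a pseudocount of 64 (adjusted p = 0.0914), without a filter (0.158), with arrays centred on 1 median (0.139) and with quantile normalization (0.216) in limma. Over both lines its tamoxifen difference was −0.91 ± 0.60 (95% interval −2.22 to 0.41), and the line difference in the tamoxifen effect was −1.85 ± 0.59 (limma adjusted p = 1.00). Without either estradiol-BSA with tamoxifen array, the latter was −3.72 and passed, and without either estradiol with tamoxifen array it was 0.02. The line difference in the conjugate effect, 1.84 (limma adjusted p = 0.550), was 3.71 and passed without either estradiol array, passed at 1.86 without either estradiol-BSA array and at 1.81 without either estradiol-BSA with tamoxifen array, and was −0.04 without either estradiol with tamoxifen array. Among all 22992 tested probe sets, 10 had the vehicle and the estradiol with tamoxifen arrays of A549 both at least 2-fold below the other 3, 2 at least 4-fold (this one and 204225_at of HDAC4) and 1 at least 8-fold (this one, 9.84-fold). The pattern counted was taken from 215101_s_at itself, so its place among these is no test.

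Other probe sets of the same genes were below 20 on most or all arrays. The CXCL2 probe set 1569203_at read 5.97 to 7.37 and 230101_at 3.2 to 6.32 over the 10 arrays. The CXCL8 probe set 211506_s_at read 9.95, 13.3, 10.9, 14.5 and 15.4 in A549 and 4.77 to 8.25 in HTB-182, with its order of treatments in A549 close to that of 202859_x_at, whose lowest array was estradiol with tamoxifen and not vehicle. The CXCL5 probe set 207852_at read 9.38, 11.8, 13.2, 20.7 and 11.6 in A549. Different probe sets of a gene bind different stretches of its transcripts, so their levels are not comparable. The A549 values above 20 thus rest on 209774_x_at alone for CXCL2 and on 202859_x_at alone for CXCL8. Whether these, or 214974_x_at of CXCL5, also bind transcripts of related genes was not tested.

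CXCL1, CXCL2, CXCL3, CXCL5 and CXCL8 belong to a row of 9 chemokine genes on chromosome 4 that RefSeq lists in the order CXCL8, CXCL6, PF4V1, CXCL1, PF4, PPBP, CXCL5, CXCL3 and CXCL2. CXCL6, also a neutrophil chemokine, averaged 4.51 in A549 and 4.20 in HTB-182, and PF4V1, a platelet factor gene, 3.64 and 3.67, so neither was above 20 on any array. PF4, a platelet chemokine, averaged 48.4 in A549 and 19.9 in HTB-182, and PPBP, the precursor of other platelet chemokines, 16.03 and 4.71. The genes above 20 in A549 were therefore not an unbroken stretch of the row. The promoter of CXCL6, which was not above 20, carried the same 11-letter run as those of CXCL1, CXCL2, CXCL3 and CXCL5.

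Receptors, regulators and targets of these genes were read from lists, each gene by its brightest probe set, and medians are given beside that of all genes tested. For A549 minus HTB-182 the median over 12934 genes was 0.03, with 33.7% higher and 32% lower in limma. Of the receptors, 5 of 9 were tested, 3 were higher in A549 and 1 lower, with a median of 1.38. Higher were IL6ST (3.80), the signalling chain of the IL6 receptor, ACKR3 (3.52), a scavenging chemokine receptor, and IL6R (1.38), and lower was CXCR4 (−5.92), the receptor of CXCL12. CXCR1, a receptor of CXCL8, differed by 0.05 and did not pass, and CXCR2, CCR2 and CCR6, the receptors of the neutrophil chemokines, CCL2 and CCL20, were below 20 on every array. Of 12 other chemokines 1 was tested, CXCL16, a transmembrane chemokine, which was higher in A549 (0.98).

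Of the NF-kB subunits, kinases and feedback regulators 14 of 17 were tested, 9 were higher in A549 and 0 lower, with a median of 0.63. They included the kinase IKBKB (1.75), NFKBIZ (1.65) and the inhibitors NFKBIA (1.15) and TNIP1 (0.87). Of 18 other NF-kB target genes 15 were tested, 10 were higher and 1 lower, with a median of 0.47. Higher were PTGS2 (5.85), the inducible cyclooxygenase, IER3 (3.28), PLAU (2.80), a plasminogen activator, and LIF (1.86), and lower was CD83 (−0.56).

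Of 13 cooperating factors and mRNA decay regulators 11 were tested, 7 were higher and 3 lower, with a median of 1.07. CEBPB (2.92) and JUNB (2.17), transcription factors, and ZFP36 (2.14) and ZFP36L1 (1.81), which promote decay of AU-rich mRNAs, were higher in A549. JUN (−1.09), HNRNPD (−1.03) and ELAVL1 (−0.75), the latter a stabilizer of AU-rich mRNAs, were lower. Of 15 genes of IL6 signalling and response 9 were tested, 8 were higher and 0 lower, with a median of 1.01. They included the fibrinogen chains FGG (7.17), FGB (6.87) and FGA (4.86) and the kinase JAK1 (3.31). IL6 itself was below 20 in both lines.

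**Figure D5:**
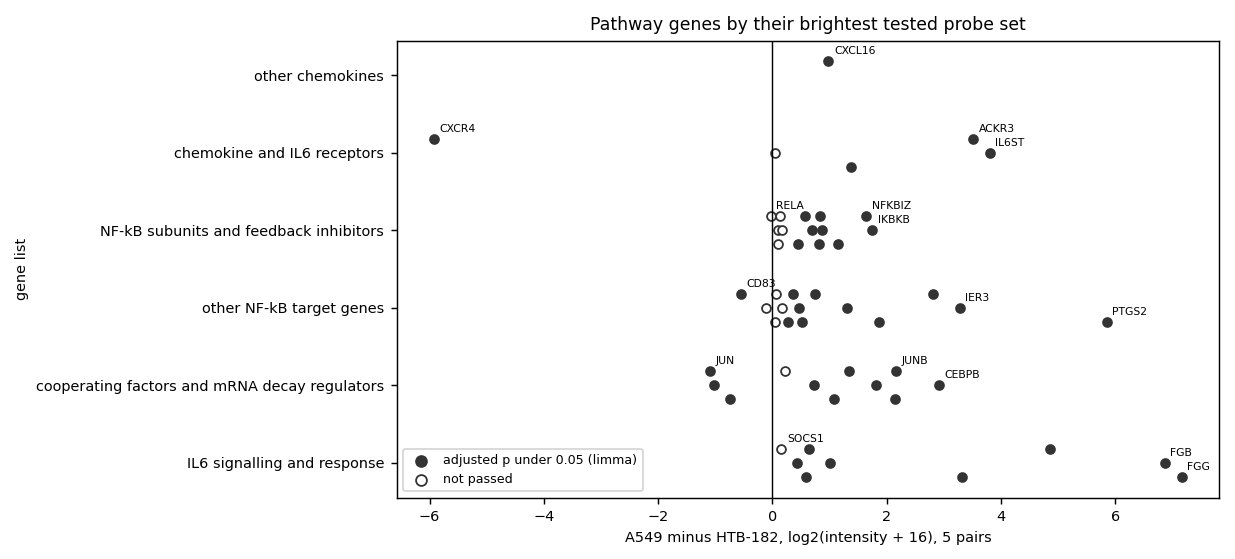
A549 minus HTB-182 on the log2(intensity + 16) scale for the tested genes of each pathway list, with 1 point per gene (brightest probe set), filled where limma's adjusted p passed. List medians run from 0.47 for other NF-kB target genes to 1.38 for the receptors, against 0.03 over all genes tested, and single genes run from −5.92 (CXCR4) to 7.17 (FGG).

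None of these lists held a gene that passed for treated minus vehicle over both lines, for estradiol-BSA minus estradiol or for tamoxifen. The line difference in treated minus vehicle was passed by 300 (2.32%) and 135 (1.04%) of 12934 genes in the positive and negative direction. In these pathway lists, 2 genes passed it in limma by their brightest probe set, NFKBIE, an inhibitor that holds NF-kB in the cytoplasm, and ZFP36L1. NFKBIE read 19.7 in A549 with vehicle and 50.2 to 55.0 on the 4 treated arrays, against 24.2 to 31.6 in HTB-182, a line difference of 0.89 ± 0.23 (limma adjusted p = 0.0284, and 0.0819 without a filter). ZFP36L1 read 389 in A549 with vehicle and 918, 1703, 1556 and 1486 on the treated arrays, a line difference of 1.93 ± 0.27 (limma adjusted p = 4.5e-05) on 211962_s_at. Another tested ZFP36L1 probe set, 211965_at, gave 0.72 and did not pass (limma adjusted p = 0.189). Among the marker lists 1 gene passed, SOX2 on 228038_at, with 36.1 in A549 with vehicle, 164, 131, 192 and 153 on the treated arrays, 3843 to 4377 in HTB-182 and a line difference of 1.82 ± 0.22 (limma adjusted p = 7.7e-06). On 228038_at SOX2 was thus lowest on the A549 vehicle array, as CXCL1 was. The other tested SOX2 probe sets were not lowest there and did not pass (limma adjusted p = 0.111 for 213721_at and 0.429 for 213722_at). In A549, 213721_at read 54.8 with vehicle and 31.0 to 61.3 on the treated arrays, and 213722_at 21.7 and 16.1 to 25.2.

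IL6R, the ligand-binding chain of the IL6 receptor, passed the line difference in the conjugate effect on 226333_at. It read 24.1, 29.8, 27.7, 90.3 and 104 in A549 and 7.72 to 9.54 in HTB-182, a line difference of 1.37 ± 0.16 (limma adjusted p = 0.0145, and 0.0615 with a pseudocount of 1). Since HTB-182 was below 20 throughout, this largely restates the A549 values and does not show that the lines responded differently. Its other probe set with values above 20, 205945_at, read 32.8, 19.6, 38.1, 36.1 and 52.9 in A549. It too was higher with the conjugate in both pairs, but its estradiol with tamoxifen array was above its estradiol-BSA array.

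The likeness of patterns was measured as Pearson's r over the 10 arrays after each line's mean had been removed, over 12927 other genes, and is a description, since all points share the same 10 arrays. CXCL1 was most like PRSS35 (0.985), STRN3 (0.978) and SLAIN2 (0.975), and CXCL2 most like IL6R (0.986), EID3 (0.970) and PSPH (0.962). CXCL3 was most like UNG (0.975), NAPEPLD (0.972) and ST20-AS1 (0.966), and CXCL5 most like PHF6 (0.995), DCPH1 (0.986) and PAPPA (0.985). CXCL8 was most like IGFBP1 (0.946), EID3 (0.945) and PIM3 (0.942), CXCL14 like PTPRM (0.927), GRB7 (0.908) and HOMER3 (0.874), and CCL2 like DCTPP1 (0.967), AUNIP (0.962) and PHYKPL (0.961). Among the members, CXCL2 and CXCL8 were the most alike (0.929), followed by CXCL1 and CXCL3 (0.881). CCL2 ran against CXCL1 (−0.738) and CXCL3 (−0.722). For CXCL1, CXCL2, CXCL3, CXCL5 and CXCL8, below 20 throughout HTB-182, r rests mostly on the 5 A549 arrays. For CXCL14 (218002_s_at) the SD of log2 values was 0.022 in HTB-182 and 0.139 in A549. Its r therefore mostly follows A549 values below 20, from which no pattern is read.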

How the data were processed

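Total RNA of 10 samples, 5 per line, was hybridised to Affymetrix arrays, and the deposited values are linear intensities in a single table that the authors made with MAS5, per the submitters' processing notes. Its version, and the target its values were scaled to, are not stated in the material used here. The table held 54675 probe sets, of which 62 controls were left out, and genes were named from the platform annotation for the 41091 probe sets with 1 gene. Groups came from the source descriptions, some of which join the names of both lines for A549, and from the cell line entries.

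Intensities were transformed as log2(intensity + 16) and kept where their mean was at least that of intensity 20, which left 22992 probe sets. Differences were fitted with limma 3.58.1 in R 4.3.3 with an intensity trend, and p-values were adjusted over all tested probe sets at 0.05. An additive model of line and treatment (4 residual degrees of freedom) gave the main comparisons, and models with line by treated and line by tamoxifen or estrogen form terms (2 residual degrees of freedom) gave the line differences. The line is the block in every model. Scripts were tested on simulated data. Named by rule were the members, up to 4 genes of each pathway list with the largest absolute difference in the comparison described, marker genes, and the 3 genes most similar to each member. Other names were chosen after their values had been seen: genes behind a count of 5 or fewer (among them NFKBIE, ZFP36L1, SOX2, IL6R and HDAC4), the members' own receptors and the chromosome 4 neighbours. The letter patterns and the shared run were chosen after the promoters had been seen. The 9 genes, the lists and the tests were chosen with earlier results of these data known. The number of arrays limits the precision.

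Alternatives were other pseudocounts (1 and 64), no filter or a filter at 50, median centring, quantile normalization, the brightest probe set of each gene, array weights, and leaving out each array.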

Additional observations from a re-analysis of the deposited data

Results flagged for a closer look

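The results here were set apart because a test of the difference between the lines passed. For CXCL1, CXCL5 and IL6R, HTB-182 was below 20 on every array, so that a response there could hardly be seen and the test largely restates the A549 values. For CXCL1 the line difference in treated minus vehicle was 1.31, with A549 treated arrays at 80.7 to 141 against 34.3 with vehicle and HTB-182 arrays at 9.90 to 16.1 throughout. For 215101_s_at of CXCL5 it was 2.42, with 3 of 4 treated A549 arrays above vehicle, between 1.49 and 3.36 when 1 array was left out, and not passing in 4 of 15 other settings (limma adjusted p 0.0914 to 0.216). For NFKBIE it was 0.89 and for 211962_s_at of ZFP36L1 1.93, and for 228038_at of SOX2, a marker of the squamous line, 1.82; both lines were above 20 on nearly all arrays for these. For 226333_at of IL6R the line difference in the conjugate effect was 1.37, a comparison added after the data had been seen. All but that of IL6R rest on 1 vehicle array in each line.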

How the results depend on the processing

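CXCL1 kept its line difference in treated minus vehicle in all 15 settings that could give it, and the A549 minus HTB-182 differences of the 10 tested probe sets passed in every setting run. CCL2 also passed the line difference at a filter of 50 (limma adjusted p = 0.0482) and on brightest probe sets (0.0452). Every group is 1 array, so there were no replicates to pair. The line is the block in each model, and the pairs of arrays named above are pairs across groups. Quantile normalization and median centring moved an array's median by up to 0.11, and the split of the line difference in treated minus vehicle went from 540 positive and 208 negative to 505 and 77, and 564 and 54. Without a vehicle array that difference could not be estimated.

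Counts of probe sets passing over all genes changed as follows. For A549 minus HTB-182, 8513 passed on brightest probe sets, where fewer were tested. For the line difference in the tamoxifen effect, 0 passed with a pseudocount of 1, no filter, median centring or quantile normalization, and 1 with a pseudocount of 64. For estradiol-BSA minus estradiol, 0 passed with no filter, median centring or quantile normalization. For the line difference in the conjugate effect, 12 passed with a pseudocount of 64, 12 with no filter and 19 on brightest probe sets. Leaving out 1 array gave 0 to 3905 for treated minus vehicle, 0 to 2 for estradiol-BSA minus estradiol, 477 to 4030 for the line difference in treated minus vehicle, 1 to 124 for that in the tamoxifen effect and 5 to 396 for that in the conjugate effect. Apart from the smaller number tested, the cause was not tested.

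Signs turned only for values that had not passed. With a pseudocount of 1, CXCL14 222484_s_at had 0.0037 for treated minus vehicle, CXCL14 218002_s_at −0.0035 for the conjugate, CXCL1 0.073 and CXCL5 214974_x_at −0.12 for tamoxifen, and CXCL14 237038_at −0.21 for the line difference in treated minus vehicle. Median centring gave 0.046 for CXCL14 222484_s_at in treated minus vehicle and 0.037 for 218002_s_at in the line difference of the conjugate effect, and quantile normalization gave 0.016 for the former.

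Leaving out 1 array turned these signs, with the lowest and highest values given. For treated minus vehicle they were −0.74 to 0.13 for CCL2, −0.10 to 1.21 for CXCL1, −0.013 to 0.053 for CXCL14 218002_s_at, −0.066 to 0.037 for CXCL14 222484_s_at, −0.076 to 0.50 for CXCL2 and −0.030 to 2.39 for CXCL5 215101_s_at. For estradiol-BSA minus estradiol they were −0.056 to 0.072 for CXCL14 218002_s_at, −0.12 to 0.022 for CXCL14 222484_s_at and −0.037 to 0.20 for CXCL3. For tamoxifen they were −0.15 to 0.051 for CCL2, −0.24 to 0.21 for CXCL1, −0.29 to 0.026 for CXCL14 237038_at, −0.10 to 0.23 for CXCL2, −0.20 to 0.040 for CXCL3, −0.11 to 0.17 for CXCL5 214974_x_at and −0.34 to 0.17 for CXCL8. For the line difference in treated minus vehicle they were −0.071 to 0.28 for CXCL14 237038_at. For the line difference in the tamoxifen effect they were −0.0028 to 0.29 for CXCL14 222484_s_at, −0.10 to 0.61 for CXCL14 237038_at, −0.33 to 0.45 for CXCL2, −0.45 to 0.15 for CXCL3, −0.088 to 0.71 for CXCL5 214974_x_at, −3.72 to 0.021 for CXCL5 215101_s_at and −0.62 to 0.77 for CXCL8. For the line difference in the conjugate effect they were −0.13 to 0.21 for CCL2, −0.20 to 0.19 for CXCL14 218002_s_at, −0.26 to 0.078 for CXCL14 222484_s_at and −0.039 to 3.71 for CXCL5 215101_s_at.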
